A study of Caenorhabditis elegans with 3 samples.

Results

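Binding of EGL-27 was examined at 10 genes of insulin signalling and lifespan of Caenorhabditis elegans, namely daf-2, age-1, daf-18, pdk-1, akt-1, akt-2, sgk-1, aak-2, hcf-1 and daf-16, out of 19973 protein-coding genes of the annotation. They were taken from a list of names, and every region with its summit between 5000 bp upstream of the 5' end of the gene and its 3' end was assigned to the gene. The chromatin immunoprecipitation and sequencing (ChIP-seq) libraries came from whole L2 larvae of mixed sex, of strain OP177 (unc-119(ed3) III; wgIs177), a transgenic line in which EGL-27 carries GFP and FLAG at its C-terminus. There was 1 group of 3 biological replicates, with no untagged or treated group, the labels do not say whether the untagged protein is still made, and whole animals were used, so binding could not be assigned to a tissue. Regions in the authors' set of peaks kept by the irreproducible discovery rate (IDR peaks, 1997 on build ce11) are given beside rows of their longer pooled list, which holds 30000 regions of peaks and background. The signal is the authors' value for a region, with no scale named, and depth is unknown.

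In the insulin pathway of the worm, insulin-like peptides act through the receptor DAF-2 on the phosphatidylinositol 3-kinase AGE-1. Its lipid product acts through the kinases PDK-1, AKT-1, AKT-2 and SGK-1. The AKT kinases hold the FOXO transcription factor DAF-16 in the cytoplasm, and the phosphatase DAF-18 opposes AGE-1. When the pathway is low, DAF-16 enters the nucleus, where HCF-1 restrains it, and animals live longer and resist stress. AAK-2, a catalytic subunit of the AMP-activated kinase, also acts on DAF-16. EGL-27, an MTA-like protein with a GATA-type zinc finger, has itself been reported to promote lifespan and stress resistance.

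IDR peaks stood at 5 of the 10 genes and at both ends of the pathway: daf-16 had 4, daf-2 and aak-2 had 2 each, and akt-2 and pdk-1 had 1 each. No IDR summit lay in the windows of age-1, daf-18, akt-1, sgk-1 or hcf-1. Of all protein-coding genes, 14.9% had an IDR summit in a window drawn in the same way. Windows of these 10 genes ran from 8.5 kb (hcf-1) to 51.3 kb (daf-2), against a median of 7.03 kb for all genes, and a longer window has more room for a summit. Among genes whose window length was within 20% of that of the member, the share with an IDR summit ran from 15.4% (hcf-1) to 43.5% (daf-2), with a mean over the 10 of 22.1%. Over the summed windows of 168.5 kb IDR summits had a density of 0.0594 per kb, and over the genome of 0.0199. No test was made of these shares, since the genes were chosen with earlier results known.

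**Figure D1:**
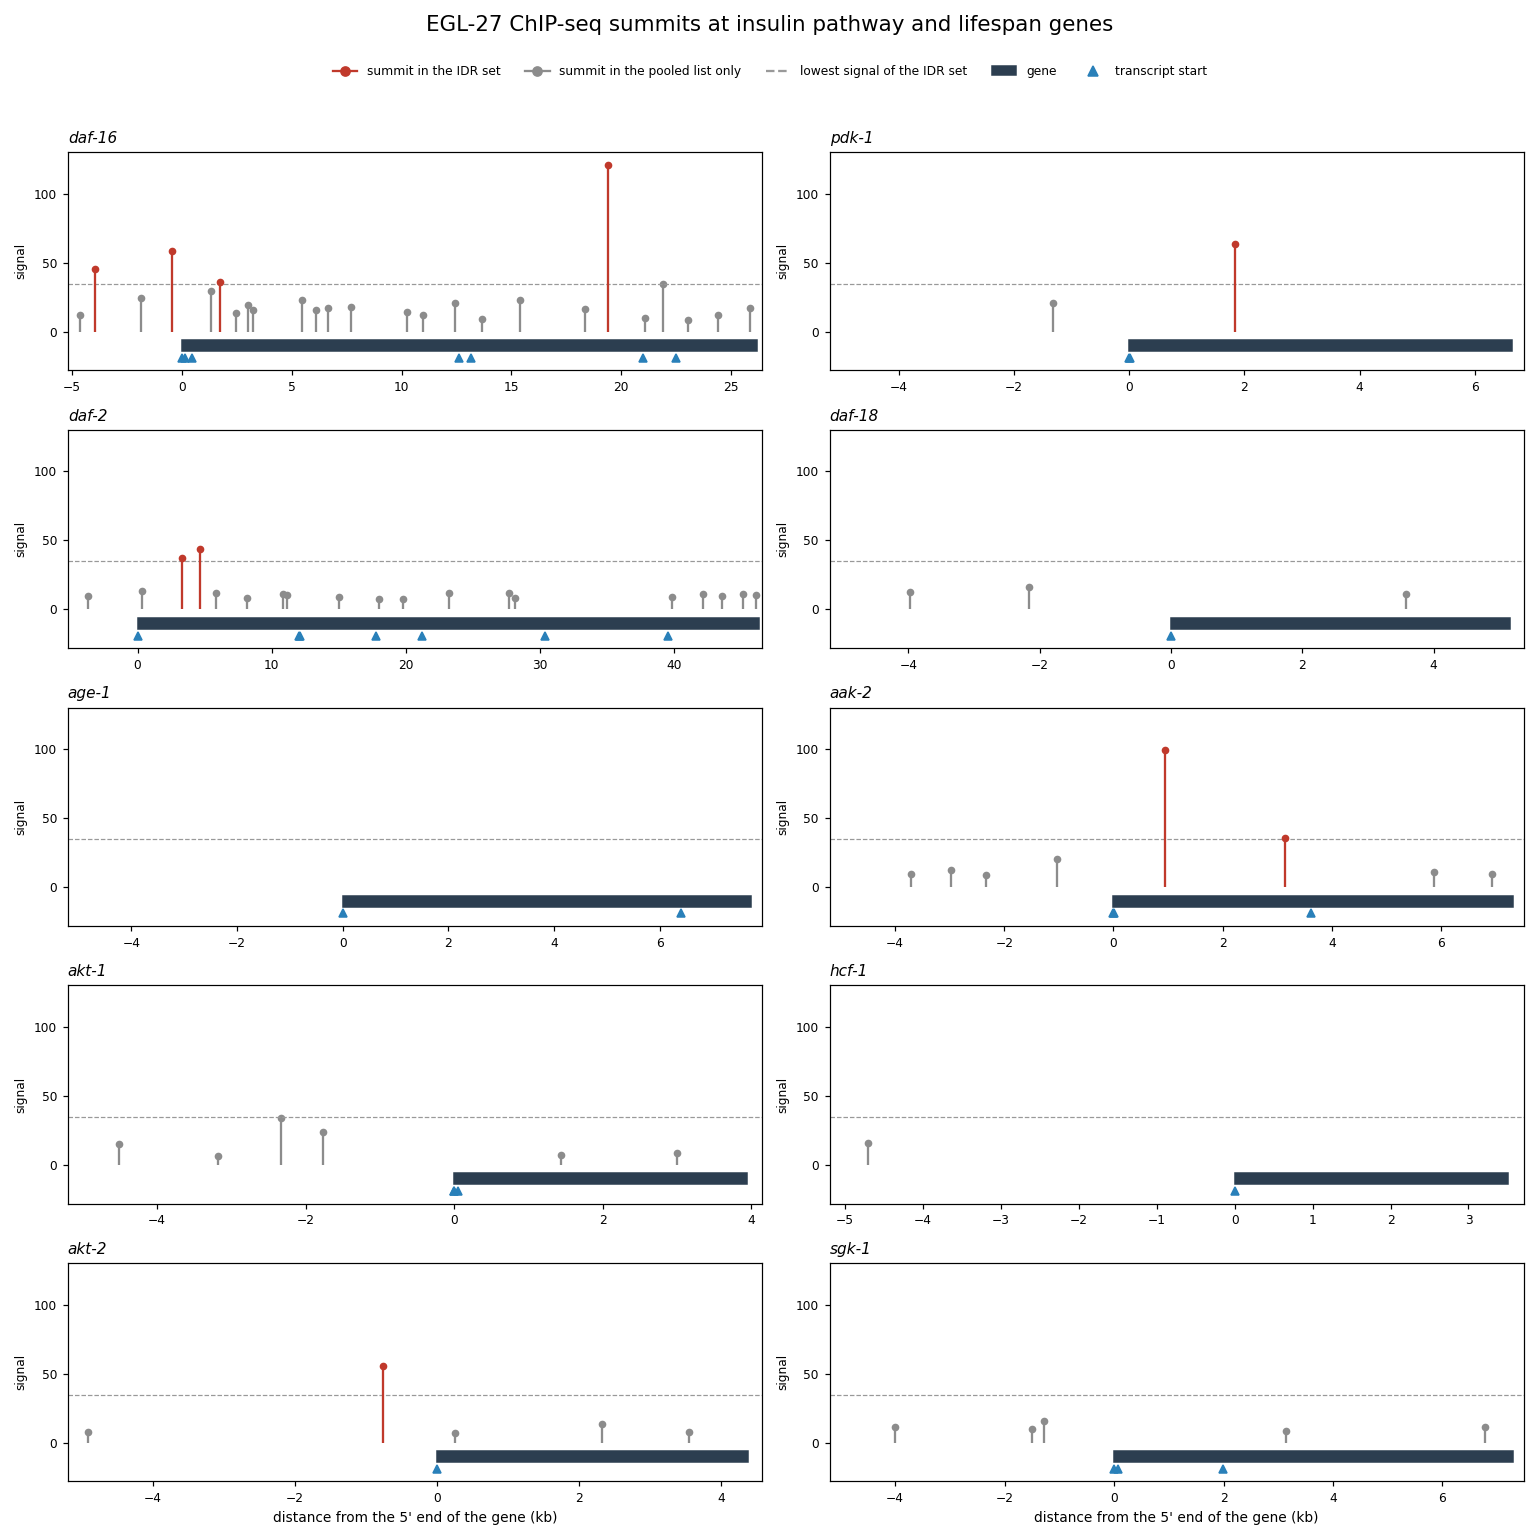
Signal (y axis, the authors' value) of every summit in the pooled list at the 10 genes, against the distance from the 5' end of the gene in kb (x axis, transcription from left to right). Red stems are in the IDR set and grey stems are not, the dashed line is the lowest signal of the IDR set (34.8), dark bars are the genes and triangles are transcript starts. The highest stems are in introns of daf-16 (signal 121) and aak-2 (signal 99.5), and age-1 has none.

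Of the 10 IDR summits 7 were inside the genes, and so were 52 of the 74 pooled rows. The gene body filled 46333 of the 51333 bp of the window at daf-2 and 3506 of 8506 bp at hcf-1. The part of gene length in this count was not tested. Of the 10, 7 were in introns, 2 in promoters (from 1000 bp before to 200 bp past the 5' end) and 1 in other intergenic sequence, and 0 were in coding exons. Of all 1997 IDR summits, 22.7% were in introns, 46.6% in promoters and 24.8% in other intergenic sequence. Of the 1850 that lay in the window of any protein-coding gene, these shares were 24.5%, 50.3% and 19.9%. Of the 7 intronic summits, 6 lay in long introns of daf-16, daf-2 and aak-2, of 3.48 to 12.4 kb, and the part of intron length in this split was not tested. The promoter peaks belonged to daf-16 and akt-2, that is to 2 of the 10 genes, against 6.04% of all protein-coding genes. The median signal of the 10 was 50.6 (range 35.3 to 121), close to the median of 50.8 over the whole IDR set. By position, 4 of the 10 lay within 1000 bp of an annotated transcript start of the gene, internal starts included. Of the 74 pooled rows 15 did, and the same share over all IDR summits is not given here.

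The replicates' lists held 13245 regions for replicate 1 and 30000 each for replicates 2 and 3, and replicate 1 held the fewest of these peaks. All 10 IDR peaks overlapped a region of replicate 2 and of replicate 3 by at least 1 bp, and 6 overlapped one of replicate 1. Of all IDR peaks, 59.7% were listed in all 3 replicates, 60.1% in replicate 1, 99.5% in replicate 2 and 99.6% in replicate 3. The lists have different ranges of signal, with medians of 3.23, 4.91 and 5.93 for replicates 1, 2 and 3, so ranks within a list are given beside the signals. The 4 peaks not listed in replicate 1 were both of daf-2, the one farthest upstream of daf-16 and the weaker of aak-2. Only the peaks at daf-16 +19391 bp, daf-16 -452 bp and aak-2 +946 bp were among the 1997 strongest regions of every replicate. The daf-16 -452 bp peak was close to this cut, at rank 1976 in replicate 1. The share of all IDR peaks that pass the same rule is not given here.

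**Figure D2:**
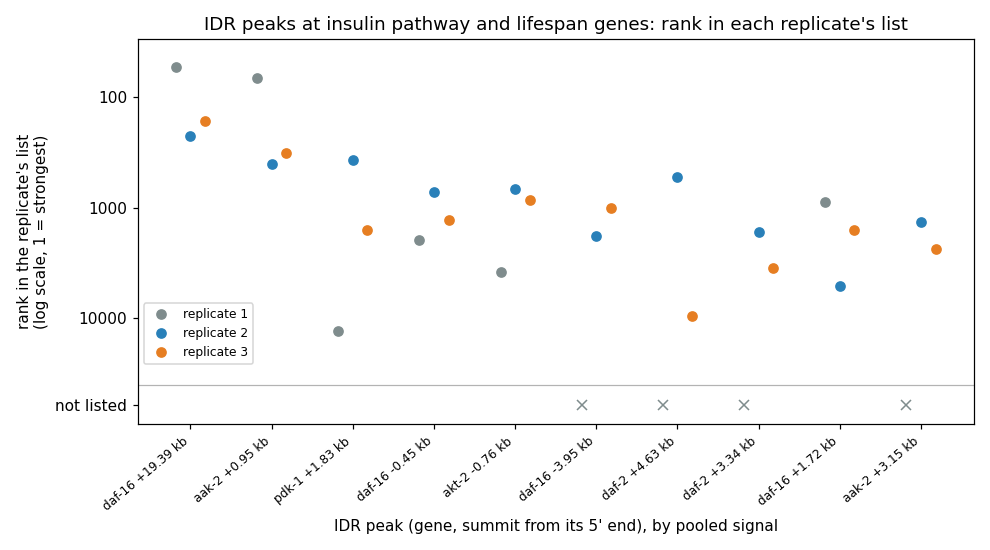
Rank by signal of each of the 10 IDR peaks in the list of every replicate (y axis, log scale, rank 1 is the strongest), with peaks ordered by pooled signal along the x axis and crosses for peaks that were not listed. The leftmost pair, at daf-16 and aak-2, ranks 403 or better in all 3 replicates, and replicate 1 lacks 4 of the peaks.

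The receptor gene daf-2 (WBGene00000898, chromosome III, 2994514 to 3040846, minus strand) had a pair of IDR summits, both in the first intron of its longest transcript. The stronger (III, 3036040 to 3036389, signal 43.5) had its summit at +4631 bp from the 5' end, and the weaker (III, 3037330 to 3037679, signal 37.6) at +3341 bp. This intron, of 11981 bp, is the first of 18 in Y55D5A.5c.1. Both summits also lay in linc-143, a long noncoding RNA gene on the same strand (III, 3035541 to 3037543). The 5' end of the next transcript of daf-2 lies at +12046 bp, so neither summit was near an internal start of daf-2. The weaker summit, at position 3037505, was however close to the annotated 5' end of linc-143, at 3037543. For the stronger peak replicate 2 gave a signal of 30.6 (rank 531) and replicate 3 one of 7.75 (rank 9598), and replicate 1 listed none. The weaker peak had 17.4 in replicate 2 (rank 1646) and 13.6 in replicate 3 (rank 3493), again with none in replicate 1. The place of the stronger peak thus differed widely between the 2 replicates that listed it.

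The sequence at the stronger daf-2 summit, 100 bp to each side, is shown because the peak lies far from any start of the gene. It is chrIII:3036115-3036315 on ce11, minus strand, from the RefSeq copy of the genome, in the direction of the gene. Capitals mark the GA repeat GAGAGA or its complement TCTCTC, which stood at 2 places.
daf-2: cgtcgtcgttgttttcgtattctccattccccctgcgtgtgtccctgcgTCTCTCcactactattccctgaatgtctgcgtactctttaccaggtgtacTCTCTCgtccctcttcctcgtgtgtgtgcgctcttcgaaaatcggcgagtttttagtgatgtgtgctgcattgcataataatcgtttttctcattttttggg

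The other 17 rows of the pooled list at daf-2 were weak, with signals from 7.34 to 13.2. In the first intron they stood at +367 bp (13.2), +5850 bp (12.3), +8177 bp (8.36), +10857 bp (10.9) and +11111 bp (10.5). The last of these was at -935 bp from the start of Y55D5A.5a.1. Further introns held rows at +15020 bp (9.21), +17979 bp (7.34), +19765 bp (7.40) and +23194 bp (11.8). In coding exons there were rows at +27668 bp (12.1), +28169 bp (8.31), +39871 bp (8.87), +42162 bp (11.2) and +43591 bp (9.51), and in the 3' UTR at +45135 bp (11.6) and +46097 bp (10.2). The only row upstream, at -3668 bp (9.68), was inside the neighbour cutl-25. Of these 17 rows, 1 overlapped regions of all 3 replicates, 6 of 2, 6 of 1 and 4 of none. The rows at +10857 and +11111 bp overlapped the same regions of replicate 1 (2.56, rank 9525) and of replicate 3 (7.69, rank 9736). The same shares over all pooled rows are not given here. The IDR peaks, at 43.5 and 37.6, were thus higher than every other row of the gene, and ranked 1343 and 1731 of the 1997 peaks of the IDR set.

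The genes on either side of the lipid step carried no IDR peak. The window of age-1 (WBGene00000090, chromosome II, 11519328 to 11527054, minus strand), which encodes the catalytic subunit of the 3-kinase, held 0 rows of the pooled list. Of all protein-coding genes 78.7% had at least 1 pooled row in the window, and 9 of the 10 genes here did. Among 2101 genes with a window length within 20% of that of age-1, 186 (8.85%) had none. At daf-18 (WBGene00000913, chromosome IV, 420011 to 425177, minus strand) there were 3 pooled rows. The strongest (signal 16.24, -2159 bp) was listed only in replicate 3 and was nearer to the 5' end of garr-1. One at -3968 bp (12.7), in replicates 2 and 3, was at -12 bp from Y66H1A.5, and one in a coding exon at +3571 bp (11.5) was listed in replicate 2.

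The kinase gene pdk-1 (WBGene00003965, chromosome X, 1321344 to 1327986, plus strand) had 1 IDR peak, in an intron (X, 1323000 to 1323349, signal 63.5, summit at +1831 bp). PDK-1 phosphorylates the AKT kinases. The summit was in intron 2 of 10 of H42K12.1b.1, an intron of 2.05 kb, and both annotated starts of the gene lie within 9 bp of the 5' end. The replicates differed at this peak. Replicate 2 gave 35.4 (rank 370), replicate 3 gave 21.0 (rank 1608) and replicate 1 gave 2.05, at rank 12914 of 13245, so that the mean rank was 4964.0 ± 6912.7 (SD, n = 3). The only other row, upstream at -1323 bp (20.9), showed the reverse in replicates 1 and 2: it ranked 634 in replicate 1 (8.17) and was not listed in replicate 2. In replicate 3 it ranked 1359 (23.1), not far from the IDR peak.

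The AKT genes differed in that an IDR peak stood upstream of akt-2 and none at akt-1. At akt-2 (WBGene00000103, chromosome X, 14147700 to 14152070, plus strand) the peak was in the promoter (X, 14146763 to 14147112, signal 55.8, summit at -762 bp). Its signal was 4.34 in replicate 1 (rank 3849), 27.5 in replicate 2 (rank 674) and 29.6 in replicate 3 (rank 849), with a mean rank of 1790.7 ± 1784.7 (SD, n = 3). The other 4 rows, at -4921 bp (7.91, inside ceh-89), +245 bp (6.69), +2324 bp (13.8) and +3543 bp (7.88), were each listed in 1 replicate.

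At akt-1 (WBGene00000102, chromosome V, 10248905 to 10252845, plus strand) a region upstream fell just short of the IDR set. It had a signal of 33.9 (V, 10246398 to 10246747, summit at -2332 bp), at rank 2084 of the pooled list and at the highest q-value, while the set ends at 34.8. Replicate 2 gave 15.8 (rank 1959) and replicate 3 gave 18.1 (rank 2128), and replicate 1 listed none. Both AKT genes thus had a region upstream at the highest q-value, with signals of 33.9 and 55.8 on the 2 sides of the end of the IDR set. Another region at -1760 bp (23.99), inside the noncoding RNA gene C12D8.25, was listed in the same 2 replicates. The rows at -4507 bp (14.8), -3183 bp (6.77), +1437 bp (7.22) and +3005 bp (8.50) were weaker, and the first pair was nearer to the 5' end of C12D8.9.

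The sequences around the strongest summits of the 3 kinase genes are shown to set the regions side by side, each 100 bp to each side of the summit on the plus strand of ce11, from RefSeq. They are chrX:1323075-1323275 for pdk-1, chrX:14146838-14147038 for akt-2 and chrV:10246473-10246673 for akt-1. Capitals mark 1 GATA match each in pdk-1 (CTATCA, the complement of TGATAG) and akt-2 (CTATCT, that of AGATAG), 3 matches of the GA repeat in akt-2 (as TCTCTC, partly overlapping), and in akt-1 the FOXO motif GTAAACA (as TGTTTAC) and the E-box CACGTG.
pdk-1: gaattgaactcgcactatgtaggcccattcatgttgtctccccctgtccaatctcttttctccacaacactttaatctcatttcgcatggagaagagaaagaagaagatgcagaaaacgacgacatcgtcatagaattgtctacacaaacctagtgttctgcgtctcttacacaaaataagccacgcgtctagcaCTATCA
akt-2: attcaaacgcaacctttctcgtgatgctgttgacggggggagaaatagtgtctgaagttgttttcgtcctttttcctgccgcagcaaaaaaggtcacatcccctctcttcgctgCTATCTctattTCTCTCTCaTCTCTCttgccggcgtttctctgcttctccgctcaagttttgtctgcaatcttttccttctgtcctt
akt-1: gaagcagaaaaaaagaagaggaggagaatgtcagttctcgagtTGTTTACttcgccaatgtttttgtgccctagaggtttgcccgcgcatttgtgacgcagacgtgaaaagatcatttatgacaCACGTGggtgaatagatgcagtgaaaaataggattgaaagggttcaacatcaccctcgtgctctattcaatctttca

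The kinase gene sgk-1 (WBGene00004789, chromosome X, 16254842 to 16262122, minus strand) had 5 pooled rows and no IDR peak. SGK-1 acts beside the AKT kinases. The strongest row (15.97, at -1289 bp) and its neighbour at -1498 bp (9.74) were in an intron of mua-6 and overlapped the same regions of replicates 2 and 3. The row at -4011 bp (11.3) was in the promoter of mua-6. Those at +3137 bp (8.66) and +6774 bp (11.4) were in the gene, and none of the 5 was listed in replicate 1.

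Outside the core of the pathway, aak-2 had IDR peaks and hcf-1 had none. At aak-2 (WBGene00020142, chromosome X, 16796087 to 16803398, plus strand) both IDR peaks were in the first intron of T01C8.1a.1, which spans 3.48 kb. The stronger (X, 16796858 to 16797207, signal 99.5, summit at +946 bp) ranked 237 in the IDR set. It had 17.2 in replicate 1 (rank 67), 34.2 in replicate 2 (rank 403) and 47.6 in replicate 3 (rank 323), a mean rank of 264.3 ± 175.5 (SD, n = 3). It was among the strongest regions of each replicate. The weaker (X, 16799062 to 16799411, signal 35.3) lay at -470 bp from the internal start of T01C8.1c.1. Replicate 2 gave 19.3 (rank 1352) and replicate 3 gave 16.8 (rank 2378), and it was not listed in replicate 1. Its signal was just above the lowest of the IDR set.

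Of the 6 other rows at aak-2, the one at -1026 bp (20.6) overlapped regions of all 3 replicates. Rows at -3712 bp (9.45), -2976 bp (12.1) and -2326 bp (8.79) were nearer to the 5' end of got-1.2, and those at +5876 bp (11.0) and +6930 bp (9.28) were in a coding exon and in the 3' UTR. The gene hcf-1 (WBGene00001827, chromosome IV, 7770770 to 7774275, minus strand) had 1 pooled row in all, at -4704 bp (16.24), and it stood at -14 bp from the 5' end of another gene, rpap-3. It was listed in replicates 2 and 3.

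The sequence at the stronger aak-2 summit is shown as the strongest of the kinase genes: chrX:16796933-16797133, plus strand of ce11, from RefSeq. Capitals mark the E-box CACGTG and GAGAGA. The GA repeat stands near the end of the window, beside a TG repeat.
aak-2: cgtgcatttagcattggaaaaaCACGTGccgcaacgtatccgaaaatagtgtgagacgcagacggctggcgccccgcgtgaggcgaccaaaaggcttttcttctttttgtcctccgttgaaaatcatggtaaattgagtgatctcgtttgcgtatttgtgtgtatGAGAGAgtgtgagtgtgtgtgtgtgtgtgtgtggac

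Some short motifs were counted in the 201 bp around each summit, on both strands. The GA repeat GAGAGA was in 7 of the 10 IDR windows of these genes, against 49.3% of all IDR windows and 13.0% of windows centred 1000 bp to each side. It occurred 19 times around the strongest daf-16 summit and 14 times around the weaker daf-2 summit, overlapping matches counted. The GATA motif, searched as AGATAA and with the first letter T as TGATAA, and likewise with a final G as AGATAG and then TGATAG, was in 4 of 10, with 37.9% of all IDR windows and 38.2% of the flanks. The FOXO motif GTAAACA was in 2 of 10, both upstream of daf-16, with 3.51% and 2.78%. The E-box CACGTG was in 1 of 10 (9.11% and 3.96%). The DAF-16-associated element TGATAAG, which contains a GATA match, was in 0 of 10 (7.16% and 4.36%). The median G+C content was 46.6% in these windows, 44.3% in all IDR windows and 35.8% in the flanks. A match describes these letters only, and no count was tested.

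The gene at the end of the pathway, daf-16 (WBGene00000912, chromosome I, 10750498 to 10776703, plus strand), had the most IDR peaks and the strongest. The peak of signal 121 lay in an intron (I, 10769813 to 10769976, summit at +19391 bp) and ranked 135 in the IDR set. It had 18.7 in replicate 1 (rank 54), 42.5 in replicate 2 (rank 227) and 58.1 in replicate 3 (rank 166), with a mean rank of 149.0 ± 87.7 (SD, n = 3). The intron, 7.68 kb long, is the seventh of 11 in R13H8.1h.1, and the region of 164 bp was narrower than the 350 bp of the other IDR peaks here. The summit was at -1619 bp from the next internal start, that of R13H8.1a.1. By the outermost 5' end of each gene the nearest was gpx-8, at 13001 bp, though the summit lay inside daf-16. This peak was high in every replicate.

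The promoter peak of daf-16 (I, 10749871 to 10750220, signal 58.2) had its summit at -452 bp, inside 2 overlapping noncoding RNA genes on opposite strands, H36N01.1 and H36N01.4. The summit, at position 10750046, was closer to the 5' ends of these genes (10750154 and 10750030) than to that of daf-16. This peak gave 5.66 in replicate 1 (rank 1976), 26.5 in replicate 2 (rank 722) and 23.8 in replicate 3 (rank 1287), a mean rank of 1328.3 ± 628.0 (SD, n = 3). Another peak, in the fourth intron (I, 10752039 to 10752388, signal 35.9, summit at +1716 bp), was 1254 bp downstream of the start shared by R13H8.1d.1 and R13H8.1k.1. Its signals were 7.31 (rank 891), 9.18 (rank 5063) and 21.2 (rank 1585) in replicates 1, 2 and 3, and its mean rank 2513.0 ± 2235.5 (SD, n = 3). The remaining peak (I, 10746373 to 10746722, signal 45.5) was far upstream at -3950 bp and nearer to the 5' end of B0205.4, from which it was at -2133 bp. It had 16.6 in replicate 2 (rank 1798) and 27.0 in replicate 3 (rank 1003) and was not listed in replicate 1.

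Transcription of daf-16 starts at 7 annotated positions, of which 3 lie within 462 bp of the 5' end. The others are at +12605 bp (R13H8.1b.1 and R13H8.1c.1), +13156 bp (R13H8.1l.1 and R13H8.1m.1), +21010 bp (R13H8.1a.1) and +22501 bp (R13H8.1e.1). No IDR summit lay within 1000 bp of these internal starts. Weaker rows did. One of signal 34.4, at rank 2033 of the pooled list and at the highest q-value, was at -586 bp from R13H8.1e.1, just below the end of the IDR set. It was listed in all 3 replicates, with 4.49 (rank 3568), 5.87 (rank 11273) and 19.6 (rank 1815). A row of 20.8 was at -191 bp from R13H8.1b.1 and was listed only in replicate 2 (9.26). Rows of 9.01 at +13661 bp and 9.72 at +21104 bp, both in replicates 2 and 3, were 505 bp downstream of R13H8.1l.1 and 94 bp downstream of R13H8.1a.1. The row of 8.52 at +23034 bp, 533 bp downstream of R13H8.1e.1, was listed in 0 replicates.

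The pooled list held 25 rows at daf-16, or 0.801 per kb, with densities of 0.439 over the 10 windows and 0.299 genome-wide. The fourth intron alone, of 12.4 kb, held 12 of them. Beside the IDR summit and the row of 20.8 these were at +1300 bp (29.2), +2470 bp (13.4), +2995 bp (19.3), +3215 bp (15.9), +5482 bp (23.1), +6082 bp (15.9), +6668 bp (17.2), +7686 bp (18.3), +10251 bp (14.3) and +10963 bp (11.98). The seventh intron held further rows at +15390 bp (23.1) and +18340 bp (16.4). Rows at the 3' end were in coding exons at +23034 bp (8.52) and +24394 bp (12.01) and in the 3' UTR at +25883 bp (17.5), and upstream there were rows at -4644 bp (11.99) and -1865 bp (24.2). Of the 21 rows outside the IDR set, 3 overlapped regions of all 3 replicates, 14 of 2, 3 of 1 and 1 of none. Some shared a region, since the rows at +2995 and +3215 bp overlapped the same region of replicate 1 (6.35, rank 1406). The same shares over all pooled rows are not given here.

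Few genes with windows as long as that of daf-16 (31.2 kb) held as many IDR summits. Of 155 other genes within 20% of its length, 40 (25.8%) had any and 5 (3.23%) had 4 or more. The highest were T28B11.1 (7), fkh-7 (6), a forkhead gene, and lin-14 (6), which encodes a regulator of larval timing. The plot of summits against window length shows daf-16 high in the field, daf-2 with 2 summits in a window of 51.3 kb and the shorter genes at 0 to 2. For aak-2, 81 of 2334 genes of like length (3.47%) had at least 2, for akt-2 982 of 5701 (17.2%) and for pdk-1 563 of 2762 (20.4%) at least 1, and for daf-2 4 of 23 (17.4%) at least 2. These counts are a description of the genome and no test.

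**Figure D3:**
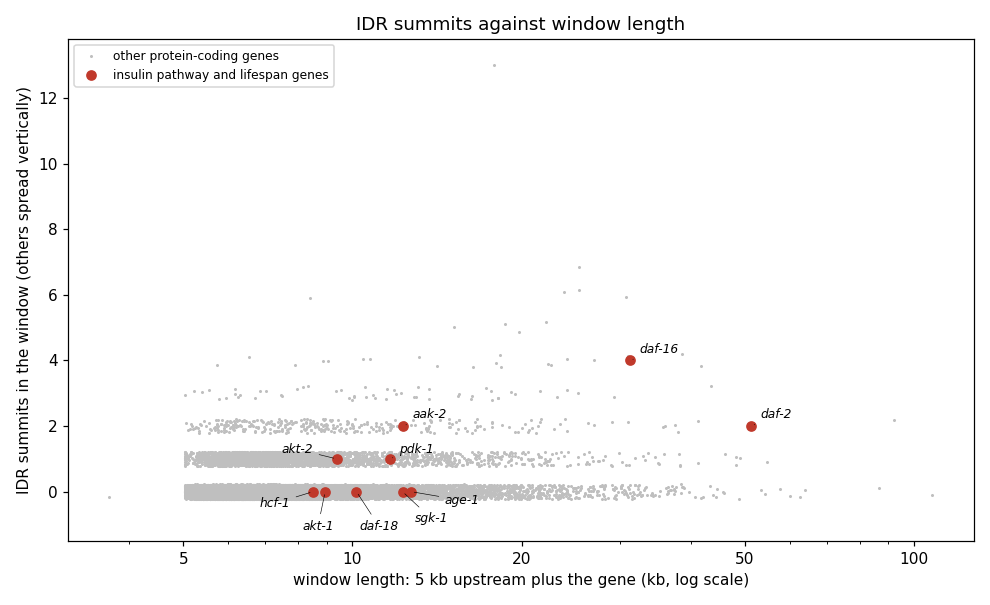
Number of IDR summits in the window (y axis) against window length in kb (x axis, log scale) for the 10 genes (red) and all other protein-coding genes (grey, spread vertically for visibility). The gene daf-16 has 4 summits in 31.2 kb, aak-2 has 2 in 12.3 kb, and 5 of the 10 genes lie at 0.

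Other genes of the pathway and of lifespan comprised 71 names in 7 lists, of which 70 were matched by symbol (elt-5 was not). Of these, 16 (22.9%) had an IDR summit, against 14.9% of all protein-coding genes. The 2 shares were not matched for window length, and a longer window has more room for an IDR summit. None of 8 insulin-like ligand genes and none of 3 mitochondrial lifespan genes had one. Of 4 genes of the 3-kinase branch, pptr-1, a regulatory subunit of protein phosphatase 2A, had one at -1415 bp (signal 81.5). Of 16 regulators and cofactors of DAF-16 there were 4, led by smk-1 (67.3), a DAF-16 cofactor. The summits of smk-1, math-33 and par-5 were nearer to the 5' ends of vps-60, erfa-3 and M117.3, and those of the other gene, ftt-2, were nearest to its own. Of 12 TOR and AMPK genes there were 4, led by aakg-1, a gamma subunit of the AMP-activated kinase, with 4 intronic summits of which the strongest had a signal of 66.0. In that list the summits of rheb-1 and let-363 were nearer to the 5' ends of spk-1 and vep-1. The rheb-1 summit was at -295 bp from rheb-1 and -283 bp from spk-1, and that of let-363 lay in an intron of let-363. Among 13 other transcription factors 6 had one, led by hif-1, the hypoxia-inducible factor (177, at -2002 bp). Of 14 known DAF-16 targets only sip-1, a small heat shock protein gene, had one (48.4), nearer to the 5' end of sly-1. In all, 6 of the 16 genes had no summit to which their own 5' end was the nearest. No list was tested.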

How the data were processed

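Peak lists of EGL-27 ChIP-seq were analysed for 3 biological replicates on ce11. Per the notes deposited with the libraries, the authors listed peaks with background for each replicate against a control, did the same for the pooled alignments, and kept an optimal set by IDR. The signal of each region is the authors' deposited value, and the −log10 q-value is also deposited and reaches a ceiling of 3.65. For the aligner, the peak caller and the threshold of the IDR step, names and values were not given in the sources used here. The ce10 lists were not used here, since the annotation was on ce11 (Ensembl release 115, WBcel235). The control was not analysed here. No region of the lists extended beyond a chromosome end.

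Summits were placed in windows with Python 3.11.15 and pandas 2.3.3, and the counting was tested on simulated data. Overlap by 1 bp or more with a region of a replicate's list counted as listed. Ranks are by signal within a list. The genes, the lists and the rule for named genes (all 10 genes, the strongest of every other list, the nearest neighbour genes and 3 genes of like window) were chosen with earlier results of these data known. No test was made, because there is 1 group. Where counts of replicates are given, they describe these 3 samples. The files hold no read counts, so no counting interval is given. The alternatives were shorter windows, stricter peaks, other overlap rules, summits of neighbours removed and each replicate left out.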

Additional observations from a re-analysis of the deposited data

How the results depend on the processing

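The number of genes with an IDR summit was 4 or 5 of 10 under every alternative in which genes were counted. The number of summits depended on what was counted as a peak. Of the 10 IDR summits, 5 were in the stronger 50% of the IDR set and 6 were listed in every replicate. With peaks required in both remaining replicates, summits ranged from 6 to 10, those at daf-16 from 3 to 4, and peaks listed in all replicates from 6 to 10, the fewest where replicate 1 was required. Without replicate 2 there were 6 summits, without replicate 3 also 6, and without replicate 1 there were 10. Among the 1997 strongest regions of each replicate, 3 peaks were found in all, at daf-16 and aak-2 only. At daf-16, 2 summits were in the gene body and 2 in the stronger 50%. Of 74 pooled rows, 12 were at the highest q-value, namely the 10 IDR peaks and 2 others. Of all 30000 pooled regions, 2210 were. The share of all protein-coding genes with a summit moved from 14.9% to 9.88% with 2000 bp upstream, 7.89% with 1000 bp, 2.38% in the gene body, 8.05% in the stronger 50% and 9.29% listed in every replicate, and ran from 9.31% to 14.8% with a replicate left out. Depth is unknown, so a gene without a peak is one where none was detected here.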
